A study of Mus musculus with 6 samples.

Results

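The Gimap genes encode GTPases of the immunity-associated protein family, which lie side by side on mouse chromosome 6. The members were chosen by name, as the 8 genes Gimap1, Gimap3, Gimap4, Gimap5, Gimap6, Gimap7, Gimap8 and Gimap9, and they were proposed with earlier results of these same arrays in view. Of the 8 genes, 7 had a probe on the array, with 10 probes in all, and 6 of these passed the filter that kept 21341 genes of the series. Gimap8 was not named by any probe, and Gimap4 was below the filter. Expression was measured on single-dye Agilent whole-genome arrays in S49 cells, which derive from a T lymphoma of the mouse and grow in suspension. MR 4-25 is a mannitol-recovered S49 line, mannitol being a sugar alcohol that raises the osmolarity of the medium, and Neo is the parental S49 line from which the series starts. Both lines were cultured in the same medium and labelled as untreated, with 3 arrays each, called MR 4-25 1 to 3 and Neo 1 to 3. With 1 recovered line and 1 parental line, the effect of recovery and other differences between the 2 lines cannot be told apart. Separate cultures are not stated for the replicates, so their spread may be technical.

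Gimap proteins carry a GTP-binding AIG1 domain related to that of the septins, and several of them are anchored in the membranes of organelles. They are known mainly from lymphocytes, where loss of single members shortens the survival of resting T cells. In rats, the best known defect is a mutation of Gimap5 that leaves the animal short of T cells.

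The arrays differed in brightness. The array's 75th percentile was 520.7 intensity units on MR 4-25 3 and 844.4 to 987.6 on the other 5 arrays. MR 4-25 3 was also the array with the fewest probes well above background, 61.3% against 69.9% to 76.2% on the other arrays. MR 4-25 1, MR 4-25 2, Neo 1 and Neo 2 were on slide 1, and MR 4-25 3 and Neo 3 on slide 2. Array correlations across genes, which are not independent replicates, ran from 0.888 to 0.984. All 11 markers of T lymphocytes on the list were well above background on all 6 arrays. Their signals, each divided by the array's 75th percentile and summed, came to 280 to 310 in MR 4-25 and 301 to 347 in Neo, and limma called 0 of 11, with 2 at an unadjusted p under 0.05, a level that 13.3% of all genes reached. The same sum was 1.09 to 1.69 in MR 4-25 and 1.24 to 1.36 in Neo for 7 B lymphocyte markers, of which Blnk, a B cell adaptor protein, was called lower (log2 difference −1.90 ± 0.25, SE, limma adjusted p = 0.0408, 0.114 with the replicate number as a block, and 0.0516 to 0.217 with any 1 array left out). With normexp background correction Blnk was at −0.90 (limma adjusted p = 0.518). The summed signal was 1.88 to 2.6 in MR 4-25 and 1.65 to 2.06 in Neo for myeloid markers, 0.121 to 0.316 in MR 4-25 and 0.122 to 0.324 in Neo for natural killer markers, and 0.422 to 0.584 in MR 4-25 and 0.577 to 0.808 in Neo for endothelial markers. Limma called 0 of the 6, 4 and 4 genes tested in these 3 lists, and 2, 0 and 1 had a p under 0.05 before adjustment. Elane, Klrk1 and Cdh5 of these lists were below the filter. Limma called 1.23% of genes in the whole table. At that share, 0 calls in lists this short, T lymphocyte markers included, say nothing particular about them.

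Some of the probes and promoters behind the results are given here. Each probe is a 60-base oligonucleotide, positioned on build mm7 by the array's annotation. The Gimap9 probe carries the difference between the lines. Gimap7 and Gimap5 had a pair of probes each that read differently, and 1 probe of each is shown. For Gimap5 it is the clone probe, which gave the differences below. For Gimap7 it is the RefSeq probe, well above background on 0 of 6 arrays. The Gimap7 differences below come from its clone probe, which is not shown. Capitals mark the triplets TAA, TAG and TGA in any forward frame. The Gimap9 and Gimap5 probes have 1 forward frame without such a triplet and the Gimap7 probe 2.
Gimap9 probe, chr6:48637890-48637949, plus strand: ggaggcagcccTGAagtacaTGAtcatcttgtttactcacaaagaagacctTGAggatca
Gimap7 RefSeq probe, chr6:48684322-48684381, plus strand: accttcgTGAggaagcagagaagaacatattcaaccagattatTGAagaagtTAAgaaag
Gimap5 clone probe, chr6:48707441-48707500, plus strand: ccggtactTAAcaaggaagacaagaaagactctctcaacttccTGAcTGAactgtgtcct
The promoter windows are from RefSeq on GRCm38.p6 and run from 250 bases before the annotated start to 50 after it. Gimap9 and Gimap1 are shown because they were the 2 members detected on all 6 arrays, the first different between the lines and the second not called. Capitals mark matches, on either strand, to the core motifs of factors known in T cells.
Gimap9 promoter, chr6:48675885-48676184, plus strand: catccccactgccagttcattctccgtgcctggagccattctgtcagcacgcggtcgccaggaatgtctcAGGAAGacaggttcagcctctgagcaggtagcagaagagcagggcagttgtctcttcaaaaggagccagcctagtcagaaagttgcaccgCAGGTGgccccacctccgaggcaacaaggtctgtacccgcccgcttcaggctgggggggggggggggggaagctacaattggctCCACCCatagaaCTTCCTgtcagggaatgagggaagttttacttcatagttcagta
Gimap1 promoter, chr6:48738797-48739096, plus strand: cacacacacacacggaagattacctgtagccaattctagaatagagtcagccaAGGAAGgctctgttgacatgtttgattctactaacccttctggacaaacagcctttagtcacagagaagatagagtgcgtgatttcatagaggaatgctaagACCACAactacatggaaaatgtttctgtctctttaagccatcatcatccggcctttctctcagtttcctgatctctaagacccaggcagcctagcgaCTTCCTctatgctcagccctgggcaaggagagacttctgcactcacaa

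The letters searched were AGGAAG for ETS factors, TGTGGT for RUNX, CCACCC for KLF, CAGGTG for E-box factors, CTTTGA for TCF-LEF and AGATAA for GATA, each on both strands, and no match overlapped another in the windows shown. The Gimap9 window holds AGGAAG from base −180 and, on the other strand, from base 7 relative to the start. It also holds CAGGTG from −90 and CCACCC from −6. The Gimap1 window holds AGGAAG from −197 and, reversed, from 3, and reversed TGTGGT from −95. RefSeq gave 9 windows for the 8 genes, since Gimap8 has a pair of overlapping windows. Of these 9 windows, 7 hold AGGAAG, 5 hold CCACCC, 3 hold TGTGGT, 2 hold CTTTGA, 1 holds CAGGTG and 0 hold AGATAA. Among all 32851 windows of this length the shares were 35.4%, 31.5%, 16.8%, 16%, 20.2% and 11.2%. The Gimap6 window holds none of the 6 motifs. A match describes letters only, and binding was not measured here.

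Gimap9 was lower in MR 4-25 than in Neo, and it was the member with the largest difference. Its signal was 485.7, 383.3 and 262.6 intensity units in MR 4-25 1, 2 and 3, and 3298.7, 2856.8 and 3188.9 in Neo 1, 2 and 3. All 3 MR 4-25 arrays were below all 3 Neo arrays, and the probe was well above background on all 6 arrays and saturated on 0 of them. For every further comparison, signals were put on a log2 scale relative to the array's 75th percentile. On that scale Gimap9 averaged −1.03 ± 0.21 in MR 4-25 and 1.77 ± 0.03 in Neo (SD, n = 3 each). The difference was −2.79 ± 0.17 (SE), which is 6.93-fold lower. It was −2.80 on slide 1 and −2.79 on slide 2. In bulk RNA such as this, fewer cells that make a transcript and less of it per cell cannot be told apart.

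The fit over all 21341 genes, limma with Benjamini-Hochberg adjustment and an adjusted p of 0.05 as threshold, called Gimap9 lower at an adjusted p of 0.00759. With the replicate number as a block the limma adjusted p was 0.104, and the call was lost. That fit called 1 gene over the whole table. With slide as a block the limma adjusted p was 0.0131, and the call was kept. The members were chosen with this contrast known, so the call is a description and supports nothing further. Of the 6 members that passed the filter, 1 was called lower and 0 were called higher (the other 5 had unadjusted limma p-values of 0.2876 or more), where 1.23% of all genes were called, 0.558% lower and 0.675% higher. Gimap9 was also the single member whose 3 MR 4-25 values were all below the 3 Neo values, an arrangement seen in 13.1% of all genes. By absolute log2 difference it ranked 125th of the 21341 genes. The call was kept without MR 4-25 3 (limma adjusted p = 0.0182) and lost without any single one of the other arrays. The limma adjusted p was 0.062 without MR 4-25 1, 0.0582 without MR 4-25 2, 0.0735 without Neo 1, 0.0904 without Neo 2 and 0.0523 without Neo 3, with differences of −2.88 to −2.68. Gimap9 was called in 14 of 20 alternative settings, with differences between −2.93 and −2.44. Some of these could not change its values. The fit of the authors' value table used the same signals. Gimap9 has a single probe, so the mean over probes and the fit of every probe left its signal as it was.

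**Figure D1:**
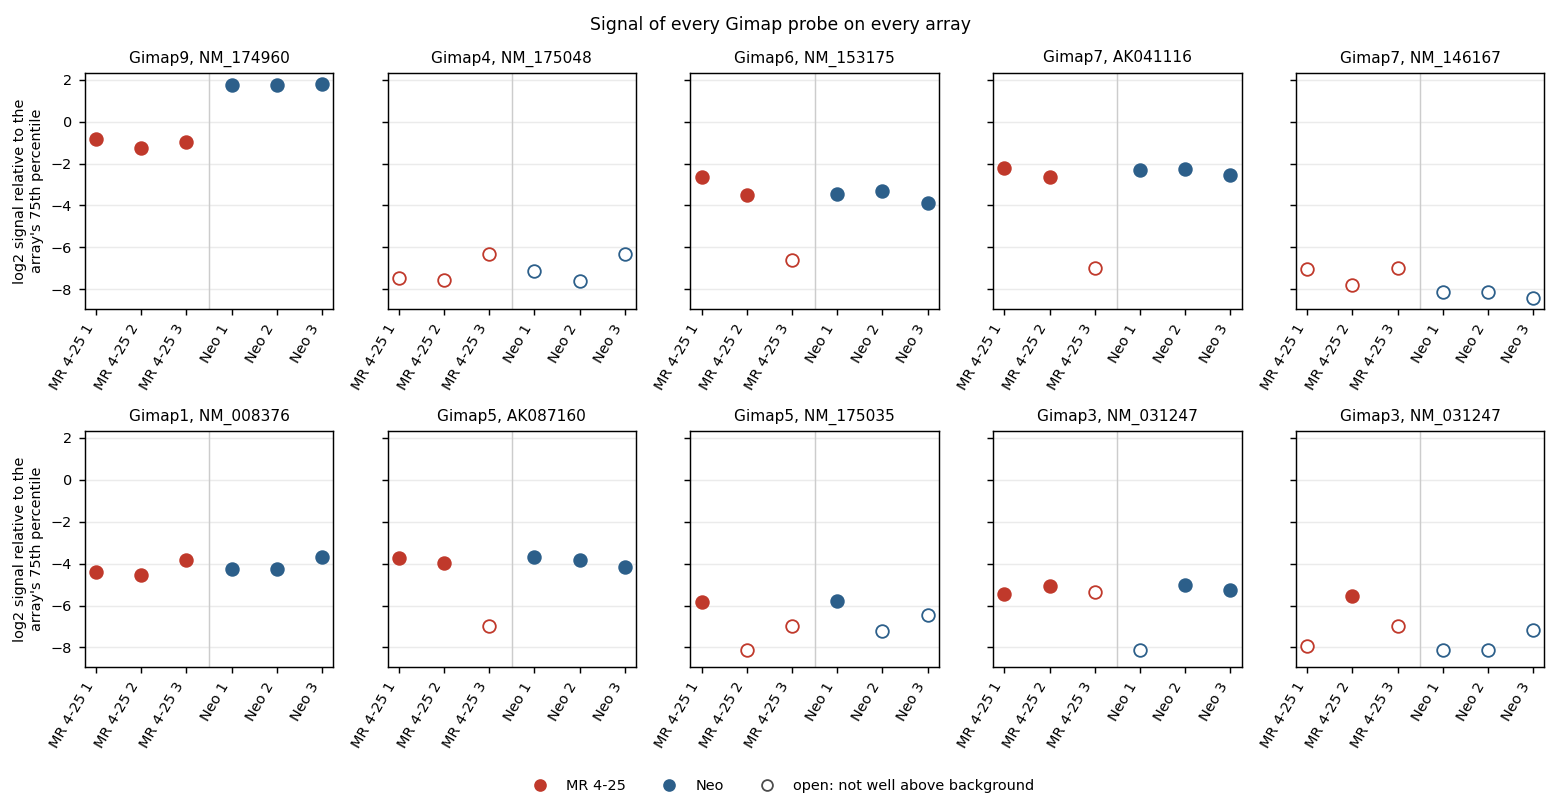
Log2 signal of each of the 10 Gimap probes relative to the array's 75th percentile, with MR 4-25 arrays in red and Neo arrays in blue; open points were not well above background. Gimap9 separates the lines, and the Gimap6, the left Gimap7 and the left Gimap5 probe each have a single open point, on MR 4-25 3. Levels of different probes are not comparable.

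Gimap1, known for its need in mature B and T cells of the mouse, was detected on all 6 arrays and differed little. Its signal was 40.8, 39 and 36.5 intensity units in MR 4-25 1 to 3, and 51.9, 44.6 and 70.4 in Neo 1 to 3. On the log2 scale the values overlapped between the lines, at −4.42, −4.55 and −3.83 in MR 4-25 and −4.25, −4.24 and −3.70 in Neo. The difference was −0.20 ± 0.28 (SE), with −0.24 on slide 1 and −0.13 on slide 2.

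Gimap6, Gimap7 and Gimap5 shared a pattern that was not one of the lines. Gimap6, linked to autophagy in lymphocytes, had 137.7, 79.5 and 5.4 intensity units in MR 4-25 1 to 3, and 90.7, 86.4 and 61.3 in Neo 1 to 3. MR 4-25 1 was the highest of the 6 arrays, and MR 4-25 3 the lowest. The Gimap7 probe designed on the cDNA clone AK041116 had 188.1, 148 and 4.2 in MR 4-25, and 200.8, 174.3 and 158.4 in Neo. Gimap7 in humans stimulates the GTPase activity of other family members. The Gimap5 probe designed on the clone AK087160 had 66.3, 57.6 and 4.2 in MR 4-25, and 77.4, 59.8 and 51.8 in Neo. For all 3 probes MR 4-25 3 was the lowest array and the single one not well above background. The values of 4.2 were put in by the scanner software in place of a signal at background, so they set no level.

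The differences of these 3 genes over all 6 arrays rest on MR 4-25 3. With its values at background taken as they stand, they were −0.72 ± 1.06 for Gimap6, −1.57 ± 1.33 for Gimap7 and −1.01 ± 0.92 for Gimap5 (log2, SE), and limma called none of the 3. Without MR 4-25 3 they were 0.45 ± 0.35, −0.05 ± 0.19 and 0.03 ± 0.21. On slide 1 they were 0.28, −0.13 and −0.10. On slide 2 the single MR 4-25 array was MR 4-25 3, so no size of a difference is given there.

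MR 4-25 3 was the dimmest array, and many other probes dropped to background there. Of 25804 probes well above background on the other 5 arrays, 13.5% were not so on MR 4-25 3, and among the 5168 of these in the signal range of the 3 Gimap probes the share was 22.9%. Of the 5 Gimap probes above background on the other 5 arrays, 3 were not above it on MR 4-25 3. On each of the other arrays the share of such probes was between 0.188% and 1.28%, and 0 of 2 Gimap probes were among them. Gimap1, which lies between Gimap7 and Gimap5, stayed well above background on MR 4-25 3 at 36.5 intensity units. A further probe of the locus, TC1433704 at chr6:48666332-48666391 on mm7, carries no Gimap name. It read 298.4, 321.7 and 62.6 intensity units in MR 4-25 and 315.8, 272.8 and 314 in Neo, again lowest on MR 4-25 3 but well above background there. The part of the array's dimness in these values was not tested.

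**Figure D2:**
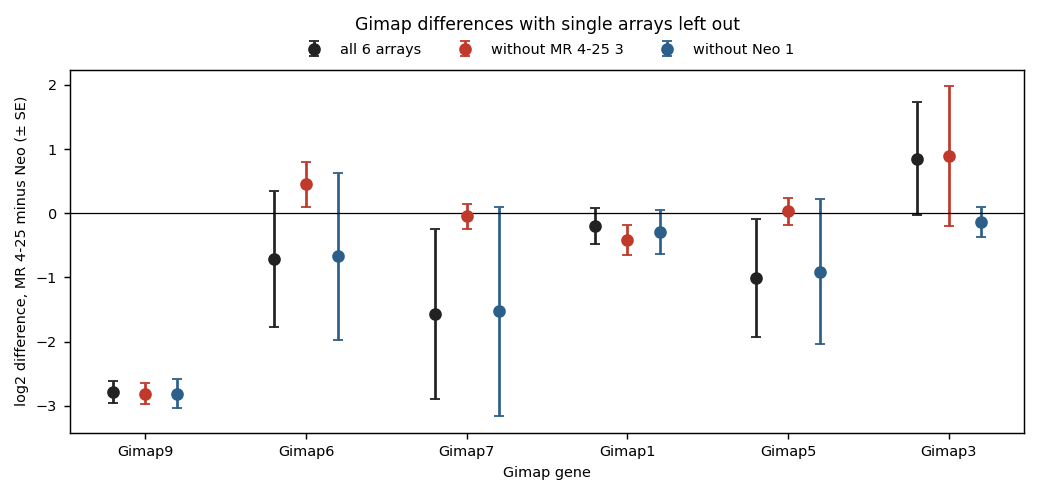
Log2 difference of each of the 6 measured Gimap genes, MR 4-25 minus Neo, with its standard error, for all 6 arrays (black), without MR 4-25 3 (red) and without Neo 1 (blue). Gimap9 stays near −2.8 in all 3 fits, Gimap6, Gimap7 and Gimap5 move to near 0 or above without MR 4-25 3, and Gimap3 falls below 0 without Neo 1.

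The second probes of Gimap7 and Gimap5 did not repeat the first. The RefSeq probe of Gimap7 read 6.8, 4.1 and 4.2 intensity units in MR 4-25 and 3.5, 3 and 2.7 in Neo, and was well above background on 0 of 6 arrays. Its clone probe, by contrast, was above background on 5 arrays and has 0 forward frames free of stop triplets. The RefSeq probe of Gimap5 read 15.4, 3.3 and 4.2 in MR 4-25 and 17.9, 5.6 and 10.6 in Neo, above background on MR 4-25 1 and Neo 1. Which transcripts the clone probes detect was not tested.

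Gimap3, a mitochondrial relative of Gimap5, was near the detection limit. Its brighter probe read 20.1, 27.1 and 12.6 intensity units in MR 4-25 and 3.5, 26 and 23.6 in Neo, where the 3.5 of Neo 1 was again put in by the scanner software. The difference was 0.85 ± 0.88 (log2, SE) and became −0.14 ± 0.23 without Neo 1. Its second probe shares 50 of 60 bases with the first, and read 3.5, 19.7 and 4.2 in MR 4-25 and 3.5, 3 and 6.3 in Neo, above background on MR 4-25 2 alone. Gimap4, tied to T cell apoptosis, read 5, 4.8 and 6.6 in MR 4-25 and 7, 4.3 and 11.4 in Neo, with 0 of 6 arrays well above background. These probes give no order of the lines for Gimap3 or Gimap4.

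The neighbouring genes on the chromosome were set beside the cluster. Of the 5 named protein-coding genes on each side, 9 were on the array, 8 passed the filter and limma called 0 of them, with 0 at an unadjusted p under 0.05, against 1.23% and 13.3% of all genes. At these shares a count of 0 among 8 genes says nothing particular about them. Their median difference was 0.17, against 0.01 over all genes. Before the cluster, Atp6v0e2, a subunit of the vacuolar proton pump, differed by −0.99 ± 0.62 and Lrrc61 by 0.28 ± 0.42. With 1 array left out, Atp6v0e2 ran from −1.37 without MR 4-25 1 to −0.38 without MR 4-25 3. A second Atp6v0e2 probe gave −0.24 ± 1.2. Rarres2, which encodes chemerin, differed by 0.49 ± 0.78, Repin1 by −0.39 ± 1.24 and Zfp775 by 0.09 ± 1.28. After the cluster, the membrane proteins Tmem176b and Tmem176a differed by −0.25 ± 0.16 and 0.37 ± 0.22, and Doxl1 by 0.25 ± 0.98 (all log2, SE). Aoc1 was below the filter and Doxl2 was not named by any probe. Gimap9 was the single called gene among these neighbours and members.

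**Figure D3:**
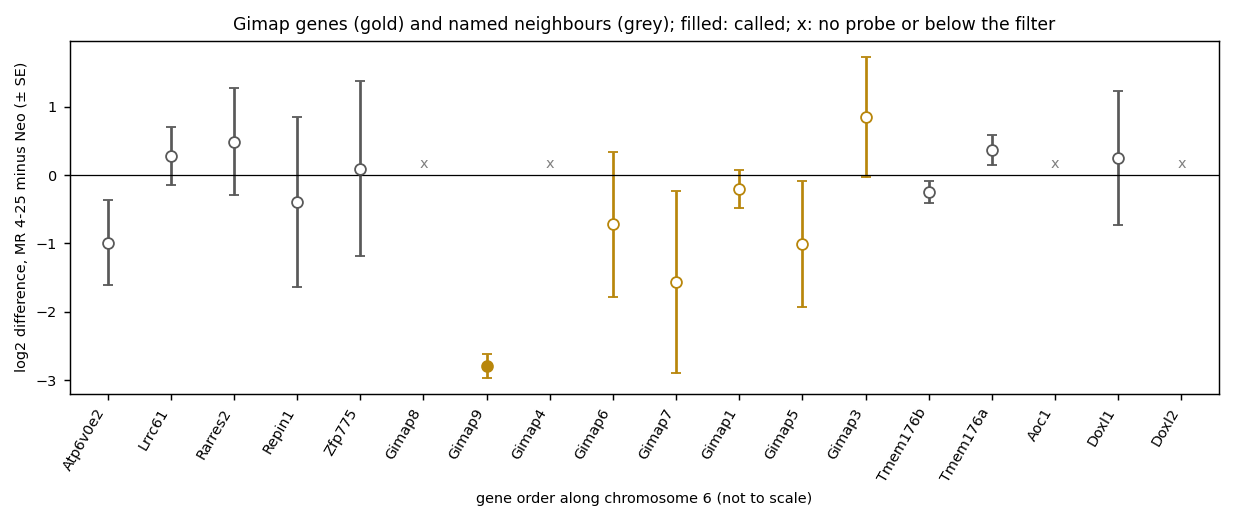
Log2 difference, MR 4-25 minus Neo, with its standard error, for the Gimap genes (gold) and 5 named neighbours on each side (grey), in gene order. The filled point, Gimap9 at −2.79, passed the limma test, and the open points did not; an x marks a gene with no value.

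The genes whose pattern over the 6 arrays was closest to that of Gimap9 were found by the Euclidean distance between log2 values centred on each gene's mean. They were Lsp1, an actin-binding protein of leukocytes (distance 0.23), Pstpip1, a cytoskeletal adaptor (0.25), Tnfrsf13b, the TACI receptor for BAFF and APRIL (0.44), 4930486L24Rik (0.51) and Slc16a10, a transporter of aromatic amino acids (0.64). Lsp1 had −1.17, −1.52 and −1.06 in MR 4-25 1 to 3 and 1.42, 1.45 and 1.45 in Neo 1 to 3, a difference of −2.69. The differences of Pstpip1, Tnfrsf13b, 4930486L24Rik and Slc16a10 were −2.86, −2.72, −2.87 and −2.93. Limma called all 5 genes lower (limma adjusted p = 0.00697 to 0.0163). With the replicate number as a block it called none of them (limma adjusted p = 0.104 to 0.108). With normexp background correction 4930486L24Rik was at −1.15. In all 5 genes the MR 4-25 arrays were below the Neo arrays, which the choice by distance favours. Other probes of the same genes were less alike, with −1.02 ± 0.75 for Tnfrsf13b, −1.75 ± 0.69 and −1.55 ± 0.61 for Slc16a10 and −2.50 ± 0.66 for 4930486L24Rik.

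**Figure D4:**
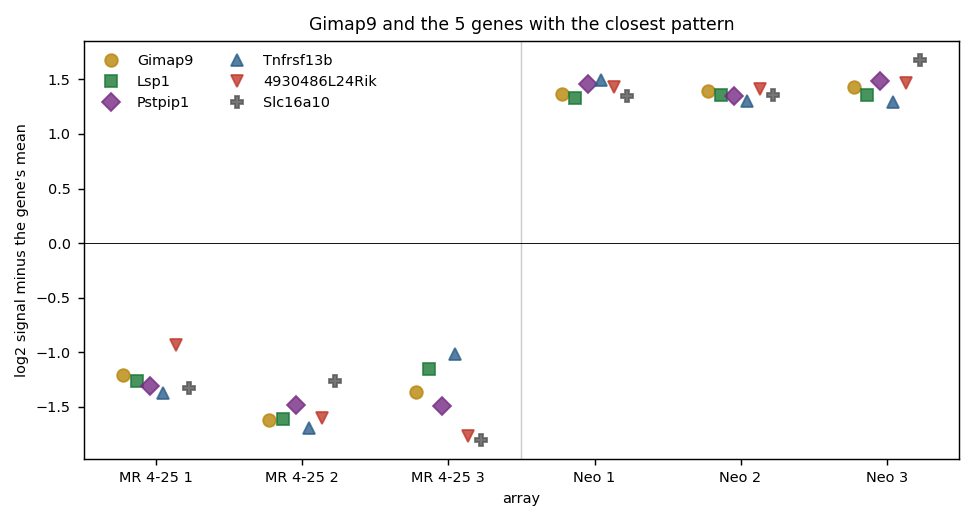
Log2 signal minus the gene's mean over the 6 arrays, for Gimap9 and the 5 genes closest to it by Euclidean distance, with MR 4-25 arrays on the left and Neo arrays on the right. Points are spread sideways to be seen; all MR 4-25 values are below 0 and all Neo values above it.

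Gene lists tied to Gimap biology were read in the same fit. Of 14 tested T cell transcription factors, 1 was called lower and 0 higher, against 1.23% of all genes, and 8 had an unadjusted p under 0.05, against 13.3% of all genes. The called gene was Tox, a factor of T cell development, with −3.13, −4.17 and −3.61 in MR 4-25 and −1.12, −1.49 and −0.74 in Neo. Its difference was −2.52 ± 0.35 (SE, limma adjusted p = 0.0483, 0.117 with the replicate block, and 0.115 to 0.223 with any 1 array left out). With normexp background correction it was −1.16 (limma adjusted p = 0.518). Tcf7, a factor of T cell identity, had −1.21 ± 0.17 (limma adjusted p = 0.0537), and a second Tcf7 probe −1.51 ± 0.38. Some other settings called Tcf7 lower, such as a filter on all 6 arrays (limma adjusted p = 0.0206) and array weights (limma adjusted p = 0.00917). It was not called with the replicate block (limma adjusted p = 0.198) or with any 1 array left out. The list's median was −0.78 and 11 of its 14 members had a negative difference, against a median of 0.01 over all genes.

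Of 14 tested genes of T cell quiescence and homing, limma called 0, with 2 at an unadjusted p under 0.05, against 1.23% and 13.3% of all genes, and a median of −0.06. The largest differences were those of Ccr7, a receptor for homing to lymph nodes, at 1.28 ± 0.25 (limma adjusted p = 0.111), and of the adhesion receptor Cd44 at 1.01 ± 0.98. The Cd44 value was 0.21 without MR 4-25 3, 0.43 without Neo 2, 1.60 without MR 4-25 2 and 1.73 without Neo 3, and a second Cd44 probe gave −0.08 ± 0.60. Of the 10 tested septins, GTPases related in structure, limma called 0, with 0 at an unadjusted p under 0.05, against the same shares of all genes, and a median of 0.15, and the largest differences were 0.96 ± 1.37 for Septin5 and −0.56 ± 0.67 for Septin3.

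Of 15 genes for reported partners of Gimap proteins, limma called 0 on the brightest probe, with 2 at an unadjusted p under 0.05, against 1.23% and 13.3% of all genes, and a median of 0.25. The largest differences were those of Sqstm1, an autophagy receptor, at 0.99 ± 0.34, and of Bcl2, an inhibitor of apoptosis, at 0.72 ± 0.22. The probes of Bcl2 disagreed in size. With every probe fitted on its own and no filter, a further Bcl2 probe differed by 2.34 ± 0.20 and the other by 0.84 ± 0.30. All 3 were well above background on all 6 arrays. A separate fit of every probe that passed the filter gave limma adjusted p-values of 0.0118 and 0.29 for these further probes.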

How the data were processed

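The intensity values were deposited by the authors as scanner output, as background-corrected Cy3 processed signals. The software was Agilent Feature Extraction, version 9.5 per the submitters' processing notes and 9.5.3.1 as written in the file headers. The authors' value table held the same signals (largest difference 0), with array medians of 50.2 to 90.2. The flags for probes well above background, for signals substituted by the software and for saturated spots were also read as deposited, per the file headers.

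Control spots and outlier spots were left out, spots of a probe were averaged, and the array's log2 75th percentile over 43379 gene spots was subtracted. A probe was kept if 3 or more of the 6 arrays had it well above background, and the brightest probe stood for a gene, which gave 21341 genes from 41174 probes. Of the probes, 22951 were named through an accession in the RefSeq table, 3109 through a synonym and 6659 by a current symbol in the file, and 8455 kept the file's name. The lines were compared with limma 3.58.1 in R 4.3.3 (lmFit and eBayes, Benjamini-Hochberg over all genes). The precision is limited by 3 arrays per line. Values for probes below the filter come from the same signals. Simulated data served to test the fit. Tables were read with the data.table package, version 1.17.8, and jsonlite 2.0.0, and figures were drawn with matplotlib 3.10.9.

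The members, lists and neighbours were chosen with earlier results of these data known. Named genes were all Gimap members, 5 named neighbours on each side, the 5 genes closest to the member of largest difference, and, of each of the 4 lists tied to Gimap biology, members past the test and the 2 of largest difference. Of the 5 marker lists only members past the test were named with values. Further probes of some genes were added after values were seen, most of them where they differed from the first. The replicate number was checked as a pairing. After subtraction of each line's mean, arrays with the same number correlated at 0.29, 0.21 and 0.56 over 21341 genes, all above 0.1, so the blocked value is printed where it changes a call. Crossed arrays of slide 1 correlated at 0.38 and 0.41, above the arrays of the same number on that slide. Arrays on different slides correlated at −0.48 to −0.35. Within slide 1 the check thus shows no pairing by number, and the blocked values are given as a caution.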

Additional observations from a re-analysis of the deposited data

How the results depend on the processing

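With 3 arrays per line, the number of calls depended strongly on the fit. The fit called 263 genes over the whole table, and leaving out 1 array gave 0 to 223. It was 80 with normexp background correction, 512 with normexp and quantile normalization, 524 with a filter on all 6 arrays, 401 with every probe on its own, 718 with an intensity trend and robust fit, 2018 with array quality weights, 124 on slide 1 alone and 1 with the replicate block. Gimap9 was the 1 member called, and the count of members was 0 to 1 with 1 array left out and 0 with the replicate block. Limma called 0 neighbours in all 20 alternatives. Over the transcription factor, quiescence, partner and septin lists, 1 gene was called, and 0 with each array left out in turn. That count was 2 with quantile normalization, 2 with normexp and quantile, 5 with a filter on all 6 arrays, 3 with the mean over probes, 5 with every probe, 6 with trend and robust fit and 12 with array weights. It was 0 with normexp, median centring, no filter, slide as a block, the replicate block and slide 1 alone. Normexp moved the median of all genes to 0.34.

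Uncalled differences turned sign in 26 cases, and the cause was not tested. With normexp, Gimap1 was at 0.51, Gimap5 at 0.64, Gimap6 at 0.77, Gimap7 at 0.35, Atp6v0e2 at 0.50, Repin1 at 0.45 and Septin3 at 0.80, all without a call. The median of all genes was 0.34 in that setting. With normexp and quantile normalization that median was 0.02, and all of these genes but Repin1 were negative. Quantile normalization put Zfp775 at −0.02, and normexp with quantile put Repin1 at 0.02. Slide 1 alone gave 0.28 for Gimap6, −0.52 for Zfp775 and −0.11 for Doxl1. Without MR 4-25 1, Repin1 was at 0.48 and Doxl1 at −0.10, and without MR 4-25 2 Repin1 was at 0.01. Without MR 4-25 3, Gimap5 was at 0.03, Gimap6 at 0.45, Rarres2 at −0.23, Zfp775 at −0.92 and Septin3 at 0.10. Without Neo 1, Gimap3 was at −0.14 and Zfp775 at −0.86. Without Neo 3, Lrrc61 was at −0.10, Repin1 at 0.14, Doxl1 at −0.70 and Septin5 at −0.23. Over the fits without 1 array, Gimap3 reached 1.41, Gimap5 −1.60, Gimap6 −1.52, Lrrc61 0.53, Repin1 −1.67, Zfp775 1.01, Doxl1 0.84, Septin5 1.94 and Septin3 −0.95 at the other end. Of the other values of named genes, 450 kept their direction and side of the threshold, 66 lost a call and 9 gained one. The 450 include the fit of the authors' value table, which held the same signals and so could not differ. The gained calls were those of Tcf7, Ccr7 and Bcl2. The lost calls were those of Gimap9, Tox, Blnk and the genes closest to Gimap9 in pattern. Those closest genes all lost their calls with the replicate block and without MR 4-25 1, MR 4-25 2, Neo 1 or Neo 2. Among them, only Pstpip1 kept its call without Neo 3, and only Lsp1 with normexp. Tox and Blnk lost their calls in every fit without 1 array, with normexp, median centring, no filter, the replicate block and slide 1 alone, and Tox also with slide as a block. Normexp put Tox at −1.16, Blnk at −0.90 and 4930486L24Rik at −1.15, against −2.52, −1.90 and −2.87. Cd44, not called, ran from 0.21 to 1.73 with 1 array left out, and was at 0.28 with normexp and quantile normalization, 0.44 with array weights and 0.46 with the mean over probes. Gimap4 and the second probes of Gimap3, Gimap5 and Gimap7 were limited by signal at background.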
